A study of Mus musculus with 8 samples.

Results

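Heat shock proteins and chaperones are described here in E14Tg2A.4 mouse embryonic stem (ES) cells, an established line, left untreated or treated with retinoic acid (RA). The members were taken by symbol: the Hspa, Hspb, Hspd, Hspe, Hsph and Hsp90 genes, the J-domain genes Dnaja, Dnajb and Dnajc, and Tcp1 with Cct2 to Cct8. This gave 81 genes, with 109 probes, of 31796 gene names on the array that are not genome positions. Each gene is represented by its brightest probe, chosen on the mean over all arrays.

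Untreated cells (4 biological replicates) and cells given 1 µM all-trans RA for 72 h in medium lacking leukemia inhibitory factor (4 biological replicates) were compared on 1-colour Agilent mouse arrays. Each array was hybridized with the labelled RNA of 1 culture, and a brighter spot means more of the matching transcript. Effects of RA and of the missing factor cannot be told apart in this design, and no group was exposed to heat. The labelled cell type was checked against its markers: all 8 ES cell markers, Pou5f1 and Nanog among them, were well above background on every array and fell after RA, and all 5 RA response genes rose.

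Chaperones bind unfolded or partly folded proteins and keep them from aggregating, and many use ATP to help them fold. Hsp70 proteins work in cycles in which J-domain proteins deliver the client and start ATP hydrolysis, while nucleotide exchange factors release it. Hsp90 finishes selected clients such as kinases and steroid receptors, small heat shock proteins hold clients without ATP, and the ring-shaped chaperonins CCT (cytosol, for actin and tubulin) and Hsp60 with Hsp10 (mitochondria) enclose them. ES cells are known for a high demand on this machinery, and heat shock factor Hsf1 and the unfolded protein responses of the endoplasmic reticulum (ER) and mitochondria set much of its transcription.

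Regulatory elements in the promoters of the members are shown first, because the results on the ER genes, Hsph1 and the mitochondrial chaperonin refer back to them. The windows came from RefSeq (build GRCm38.p6), span 250 bases before to 50 bases after an annotated start, and existed for 67 of the 81 members. The ER stress element, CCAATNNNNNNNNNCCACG, was searched on both strands. It was present in 3 of the 67 members (4.478%), against 0.137% of all 27025 genes with a window. The holders were Hspa5, Hsp90b1 and Dnajc3, and all 3 rose after RA. The stretches that hold the element follow, read 5′ to 3′ on the strand of the gene, with the element in capitals. Hspa5 is on the + strand at chr2:34771990-34772059, Hsp90b1 on the - strand at chr10:86705520-86705674, where the element occurs once on each strand, and Dnajc3 on the + strand at chr14:118937792-118937871.
Hspa5: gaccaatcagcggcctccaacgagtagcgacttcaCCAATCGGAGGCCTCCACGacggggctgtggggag
Hsp90b1: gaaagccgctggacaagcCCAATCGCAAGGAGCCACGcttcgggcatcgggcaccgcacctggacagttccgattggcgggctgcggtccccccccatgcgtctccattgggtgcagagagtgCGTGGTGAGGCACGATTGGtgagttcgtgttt
Dnajc3: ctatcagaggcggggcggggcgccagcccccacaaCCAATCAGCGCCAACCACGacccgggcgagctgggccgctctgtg

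The heat shock element, the binding site of heat shock factors, was searched in its 3-unit form, GAANNTTCNNGAA or TTCNNGAANNTTC, each also read on the other strand. It was present in 4 of the 67 members (5.97%), against 0.662% of all genes with a window, and in its shorter 2-unit form, GAANNTTC or TTCNNGAA, which the longer form contains, in 18 members (26.866%) against 16.973% of genes. The 4 genes with the longer form were Hspd1, Hspe1, Dnajb6 and Hsph1. Hsph1 fell after RA, and the other 3 did not pass the test with the probe used. Hspd1 and Hspe1 are neighbours read in opposite directions and share a single stretch, at chr1:55088053-55088082, given here on the strand of Hspe1. The Dnajb6 stretch is on the + strand at chr5:29735828-29735887. The elements are in capitals, and overlapping matches form 1 run.
Hspd1 and Hspe1: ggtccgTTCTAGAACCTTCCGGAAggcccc
Dnajb6: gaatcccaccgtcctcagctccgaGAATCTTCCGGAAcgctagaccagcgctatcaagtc
These are matches of letters and were not tested as binding sites.

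Levels are given as log2 intensity relative to the 75th percentile of the same array, so 0 is the level that 75% of the spots lie below, and they are compared only within a gene. A gene was called at an adjusted p below 0.05 (limma, Benjamini-Hochberg over all probes) with a change above 1.5-fold, and rose and fell are used for called genes alone. Of the 81 members, 71 were well above background on all 8 arrays, 4 on 4 to 7 arrays, 1 (Dnajc6) in untreated cells alone and 5 on no array. The last 5 were Dnajb7, Dnajb8, Dnajb13, Hspb7 and Cct8l1, and no direction is given for them.

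After RA 33 members were called (40.7%), 13 higher and 20 lower (the dim Dnajb13 among them), where 36.3% of all gene names were called (14.9% higher and 21.4% lower). Among the 71 members well above background throughout, 13 were higher and 17 lower (42.3% called), where 46.3% of the 18043 names of the same kind were called (19.4% higher and 26.8% lower). The share of members called lay near that of all genes. Counts given below for a family or a list are to be read beside these same shares. The arrays of the groups did not overlap for 40 of the 81 members (49.4%), where 41% of all names did so, and for 37 of the 71 (52.1%), where 56% did so. The median log2 change of the 81 members was -0.20, beside -0.27 for all names, and that of the 71 members well above background throughout was -0.05, beside -0.20 for the names of the same kind. All 33 calls had the same sign on both slides. For the 32 calls whose groups did not overlap this had to be so, since each slide held arrays of both groups. Fewer cells of a type and less RNA per cell cannot be told apart in these bulk samples.

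**Figure D1:**
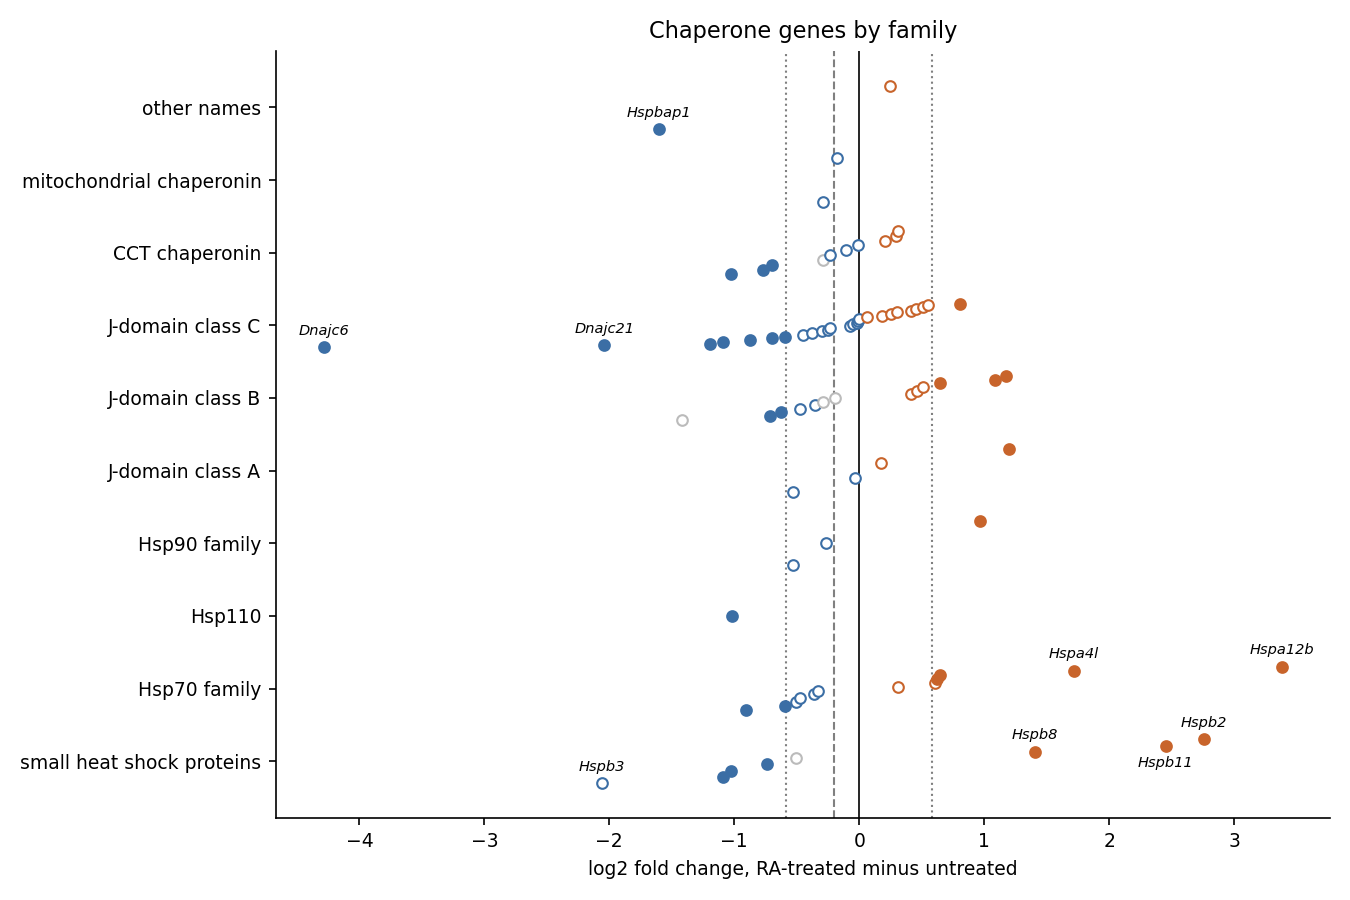
Log2 fold change (RA-treated minus untreated) of each of the 81 members, by family. Filled points were called, open points were not, and grey points were dim on all arrays (the dim Dnajb13 passed the test but is given no direction). Dnajc6, dim in RA-treated cells, is drawn at its fitted value. Dotted lines mark 1.5-fold and the dashed line the median of genes well above background on all arrays, -0.20. Members lie on both sides in most families, with the widest spread among small heat shock proteins, the Hsp70 family and J-domain class C.

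The small heat shock proteins split. Of 8 measured, Hspb2, Hspb11 and Hspb8 rose, Hspb1, Hspb6 and Hspb9 fell, Hspb3 did not pass the test and Hspb7 was dim throughout. Hspb2, a small heat shock protein of heart and skeletal muscle, measured -0.20, 0.10, 0.83 and 0.27 in untreated replicates 1 to 4 and 3.65, 3.39, 2.58 and 2.42 in RA-treated replicates 1 to 4. The lowest RA-treated array lay above the highest untreated one, and the log2 change was 2.76 ± 0.33 (SE), or 6.78-fold, with a limma adjusted p of 0.000226. Cryab, the closely related alpha B-crystallin, is annotated in RefSeq beside Hspb2 on the opposite strand with overlapping bounds. It was not taken in by the symbol rule, and it measured -0.36 ± 0.50 (SD, n = 4) in untreated and 3.81 ± 0.37 in RA-treated cells, a log2 change of 4.17 ± 0.28 (SE; limma adjusted p 1.28e-05).

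Hspb8, which works with the co-chaperone Bag3 in the clearance of misfolded proteins by autophagy, measured 1.93, 1.90, 1.77 and 2.23 in untreated and 3.70, 3.14, 3.46 and 3.16 in RA-treated replicates. The groups were well apart, with a log2 change of 1.41 ± 0.18 (SE; limma adjusted p 0.000331). Bag3 itself rose by 0.62 ± 0.17. Hspb11, a subunit of the intraflagellar transport machinery of cilia (IFT25) more than a classical chaperone, measured -0.47, -0.19, 0.33 and -0.16 in untreated and 2.48, 2.10, 2.27 and 2.47 in RA-treated replicates. Every RA-treated array exceeded every untreated one, and the log2 change was 2.45 ± 0.20 (SE; limma adjusted p 2.69e-05).

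Hspb1 (Hsp27), a ubiquitous member that also binds actin, measured 7.95, 7.85, 7.39 and 7.78 in untreated and 7.17, 7.16, 6.82 and 6.86 in RA-treated replicates. The groups did not overlap, and Hspb1 fell by 0.74 ± 0.17 (SE; limma adjusted p 0.00898), a call that ended under quantile normalization, with a value of -0.38. Hspb6 (Hsp20), a small heat shock protein of muscle, measured 1.09, 0.90, -0.19 and 1.03 in untreated and -0.56, -0.20, -0.33 and -0.20 in RA-treated replicates. Untreated replicate 3 lay next to the RA-treated arrays, the others well above them, and Hspb6 fell by 1.03 ± 0.29 (SE; limma adjusted p 0.0199). This call was lost without untreated replicate 1, 2 or 4 or RA-treated replicate 1, with values of -0.90, -0.96, -0.92 and -0.95. Hspb9, known from testis, measured -3.38, -3.16, -3.31 and -3.13 in untreated and -4.32, -4.50, -4.20 and -4.32 in RA-treated replicates, 1.09 ± 0.14 lower (SE; limma adjusted p 0.000306) with no overlap. The call ended with normexp and quantile normalization and with the values of the authors, at -0.49 in both. Hspb3 varied most among replicates, with SDs of 1.24 and 1.22 and a log2 change of -2.06 ± 0.73 (SE; limma adjusted p 0.0546), and was well above background on 3 untreated arrays and 1 RA-treated array. It was called lower in 6 of the 16 alternatives that changed the fit, the arrays or the probes. These were the replicate block (limma adjusted p 0.00442), leaving out untreated replicate 4 or RA-treated replicate 2 (-2.53 and -2.51), normexp background correction (-0.74), the filter on dim probes and the mean of all probes (both -2.06). It was not called under quantile normalization (-1.78) or with the values of the authors (-0.48).

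Markers of other cell types moved between the same groups. In the smooth and cardiac muscle list 6 of 8 rose, and its summed level (linear intensity, with the 75th percentile of the array as 1) was 4.03 to 6.56 in untreated and 260.8 to 490.4 in RA-treated cells. Acta2 and Actc1 rose most, Actc1 being well above background on 1 untreated array only, while Myl7 and Myh6 did not pass the test. In the primitive endoderm list 6 of 6 rose (1.21 to 2.24 against 21.7 to 36.6), in the fibroblast list 3 of 5 (1.03 to 1.83 against 15.7 to 34.4), and in the neural list 1 rose and 1 fell of 6 (5.98 to 9.23 against 10.2 to 11.3). In the mesoderm list 2 of 4 passed the test as lower, Mesp1, not well above background in RA-treated cells, and Mixl1, dim on all arrays. RA-treated replicates also differed among themselves: Actc1 measured 4.32, 4.07, 2.32 and 1.63 in replicates 1 to 4, Col1a1 3.11, 2.72, 0.00 and 1.05, Stra8, an RA response gene, 2.70, 2.79, 5.19 and 4.92, and Pou5f1 0.39, 2.05, -0.68 and -1.16. Hspb2 was likewise higher in RA-treated replicates 1 and 2 than in 3 and 4, and Pou5f1 was highest in replicate 2. The part of these markers in the changes of Hspb2, Hspb6, Hspb8 and the other members was not tested.

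**Figure D2:**
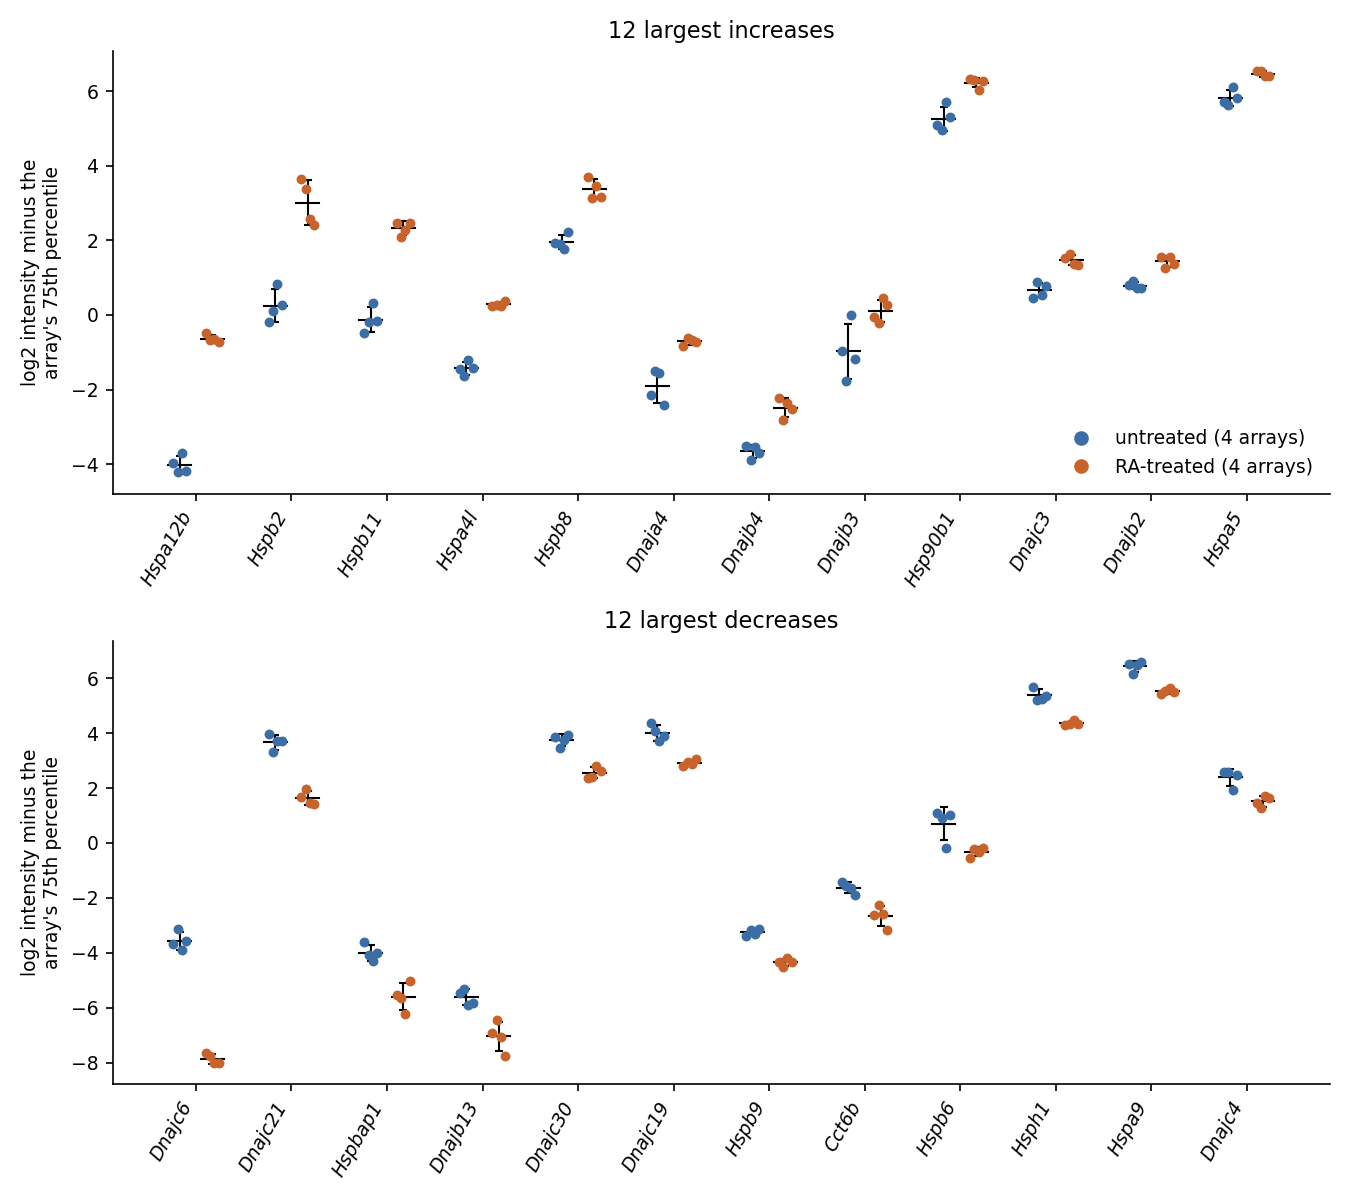
Level on each array (log2 intensity minus the array's 75th percentile) of the 12 called members with the largest increase and the 12 with the largest decrease, untreated in blue and RA-treated in orange. Lines and bars are the mean and SD of 4 replicates. Groups overlap for Dnajb3 alone, and Dnajb13 was not well above background on any array.

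In the Hsp70 family 4 of 12 members rose (Hspa12b, Hspa4l, Hspa5 and Hspa13) and 2 fell (Hspa9 and Hspa14). The shares over all gene names were 14.9% higher and 21.4% lower. Hspa12b, a divergent family member known from endothelium, measured -3.97, -4.20, -3.71 and -4.19 in untreated and -0.48, -0.67, -0.66 and -0.73 in RA-treated replicates. The gap between the groups was many times the spread within them, and the log2 change of 3.38 ± 0.16 (SE), or 10.4-fold, was the largest increase among the members (limma adjusted p 2.64e-06). With normexp background correction it was 2.27. Its relative Hspa12a was not called, with -4.99 ± 0.58 (SD) in untreated and -4.68 ± 0.42 in RA-treated cells. Hspa4l, a member of the Hsp110 branch that acts as a nucleotide exchange factor and is abundant in testis, measured -1.44, -1.64, -1.22 and -1.43 in untreated and 0.25, 0.26, 0.24 and 0.38 in RA-treated replicates. It rose by 1.71 ± 0.14 with no overlap (SE; limma adjusted p 2.98e-05).

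The other genes of the Hsp110 branch had negative values at their brightest probes. Hsph1 (Hsp105), a stress-induced nucleotide exchange factor whose start region held a heat shock element, measured 5.69, 5.20, 5.25 and 5.36 in untreated and 4.28, 4.35, 4.47 and 4.33 in RA-treated replicates. The groups lay apart, and Hsph1 fell by 1.02 ± 0.15 (SE; limma adjusted p 0.000819). A further Hsph1 probe fell by 1.03. Hspa4 had a change of -0.47 ± 0.18 (limma adjusted p 0.0647) at its brightest probe and of 0.49 and 0.62 at the other probes, none of them past the test, and the brightest was called lower without untreated replicate 3 (-0.60). With the mean of all probes the change was 0.21 (limma adjusted p 0.42).

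Neither Hspa8 nor Hspa1a was called. Hspa8 (Hsc70), the constitutive form, measured 7.86, 7.71, 7.63 and 7.98 in untreated and 7.35, 7.54, 6.91 and 7.34 in RA-treated replicates. Every RA-treated array was below every untreated one, but the log2 change of -0.51 ± 0.17 (limma adjusted p 0.0467) was under 1.5-fold. Without RA-treated replicate 2 it was -0.59 and called, and under quantile normalization it was -0.14 (limma adjusted p 0.441). Hspa1a, the classical stress-induced form, measured -0.46, -0.98, -0.68 and -0.11 in untreated and -0.94, -0.16, -0.76 and -1.70 in RA-treated replicates, overlapping widely, with a change of -0.33 ± 0.33 (limma adjusted p 0.418). Its probe, at mm9 chr17:35107117-35107176 on the - strand, is annotated to the transcripts of both Hspa1a and Hspa1b, so the pair cannot be told apart. It is shown because it is the only measurement here of the heat-induced Hsp70.
Hspa1a probe: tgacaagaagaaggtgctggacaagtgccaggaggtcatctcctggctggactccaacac
Hspa2, the testis form, had 0.44 ± 0.42 (SD) in untreated and 1.04 ± 0.55 in RA-treated cells and did not pass the test (limma adjusted p 0.163). Hspa14, a ribosome-associated member, fell by 0.60 ± 0.17 (limma adjusted p 0.0198), and this call was lost without untreated replicate 1 or 2 or RA-treated replicate 3 or 4 (values -0.50, -0.58, -0.56 and -0.56) and under quantile normalization (-0.36).

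Of 10 members assigned to the ER 8 had a positive log2 change. All 8 members assigned to the mitochondrion had a negative one at the brightest probe under the main scaling. With the mean of all probes Dnajc11 was 0.53 and Hspe1 0.12, without untreated replicate 4 Dnajc11 was 0.02, and under quantile normalization Hspd1 was 0.10. These compartments were assigned from general knowledge after the values had been seen, so the counts are a description. They depend on which members were assigned, and Dnajc14, lower by 0.60 at its brightest probe, was in neither list. In the ER 4 rose and 1 fell, with a median log2 change of 0.48, and in the mitochondrion none rose and 4 fell, with a median of -0.61, where 19.4% of all names well above background rose and 26.8% fell, with a median of -0.20.

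Hsp90b1 (Grp94), the Hsp90 of the ER, measured 5.09, 4.95, 5.70 and 5.30 in untreated and 6.32, 6.29, 6.04 and 6.26 in RA-treated replicates. Hspa5 (BiP), the Hsp70 of the ER and sensor of unfolded proteins, measured 5.71, 5.62, 6.12 and 5.83 in untreated and 6.53, 6.53, 6.39 and 6.40 in RA-treated replicates. Neither gene overlapped between groups, and untreated replicate 3 was the untreated array closest to the RA-treated ones in both. Hsp90b1 rose by 0.97 ± 0.19 (SE; limma adjusted p 0.00321) and Hspa5 by 0.64 ± 0.15 (limma adjusted p 0.00903). Without untreated replicate 2 the Hspa5 change was 0.58, just under 1.5-fold, and the call was lost. Dnajc3 (p58IPK), a J-domain protein that assists BiP and inhibits the kinase PERK, measured 0.46, 0.87, 0.55 and 0.77 in untreated and 1.52, 1.64, 1.36 and 1.35 in RA-treated replicates. The groups did not overlap, and Dnajc3 rose by 0.80 ± 0.15 (SE; limma adjusted p 0.00299). Hspa13 (Stch), a microsomal ATPase, rose by 0.62 ± 0.13 (limma adjusted p 0.00581), a call lost without untreated replicate 4, at 0.56. The first 3 of these are the holders of the ER stress element printed above.

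Not all ER partners moved this way. Dnajb9 (ERdj4), a stress-induced BiP co-chaperone, measured 1.67, 1.08, 1.90 and 1.45 in untreated and 0.88, 0.76, 1.01 and 0.96 in RA-treated replicates. It was lower by 0.63 ± 0.19 (limma adjusted p 0.0301), a weak call: it was lost in 7 of the 8 fits that left out an array, the exception being untreated replicate 2, with values of -0.50 to -0.66 in those 7, and also with normexp background correction (-0.58), with the values of the authors (-0.55) and with the mean of all probes (-0.56). Dnajb11 (ERdj3), with -0.48 ± 0.17 (limma adjusted p 0.0523), and Dnajb12, Dnajb14, Dnajc1 and Dnajc10, with changes from 0.31 to 0.51, did not pass the test. In the list of 14 other ER folding and stress genes 3 rose and 3 fell. The disulfide isomerases Pdia3, Pdia6 and P4hb rose by 0.86, 0.83 and 0.64. The stress-response transcription factors Ddit3 (CHOP) and Atf4 fell by 2.50 ± 0.20 (limma adjusted p 2.44e-05) and 0.86, and Creld2 fell by 0.87. Hyou1, Calr, Canx and Xbp1 did not pass the test. Without untreated replicate 3 Dnajb11 was called lower (-0.59) and Dnajb14 higher (0.72), and under quantile normalization neither was called.

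**Figure D3:**
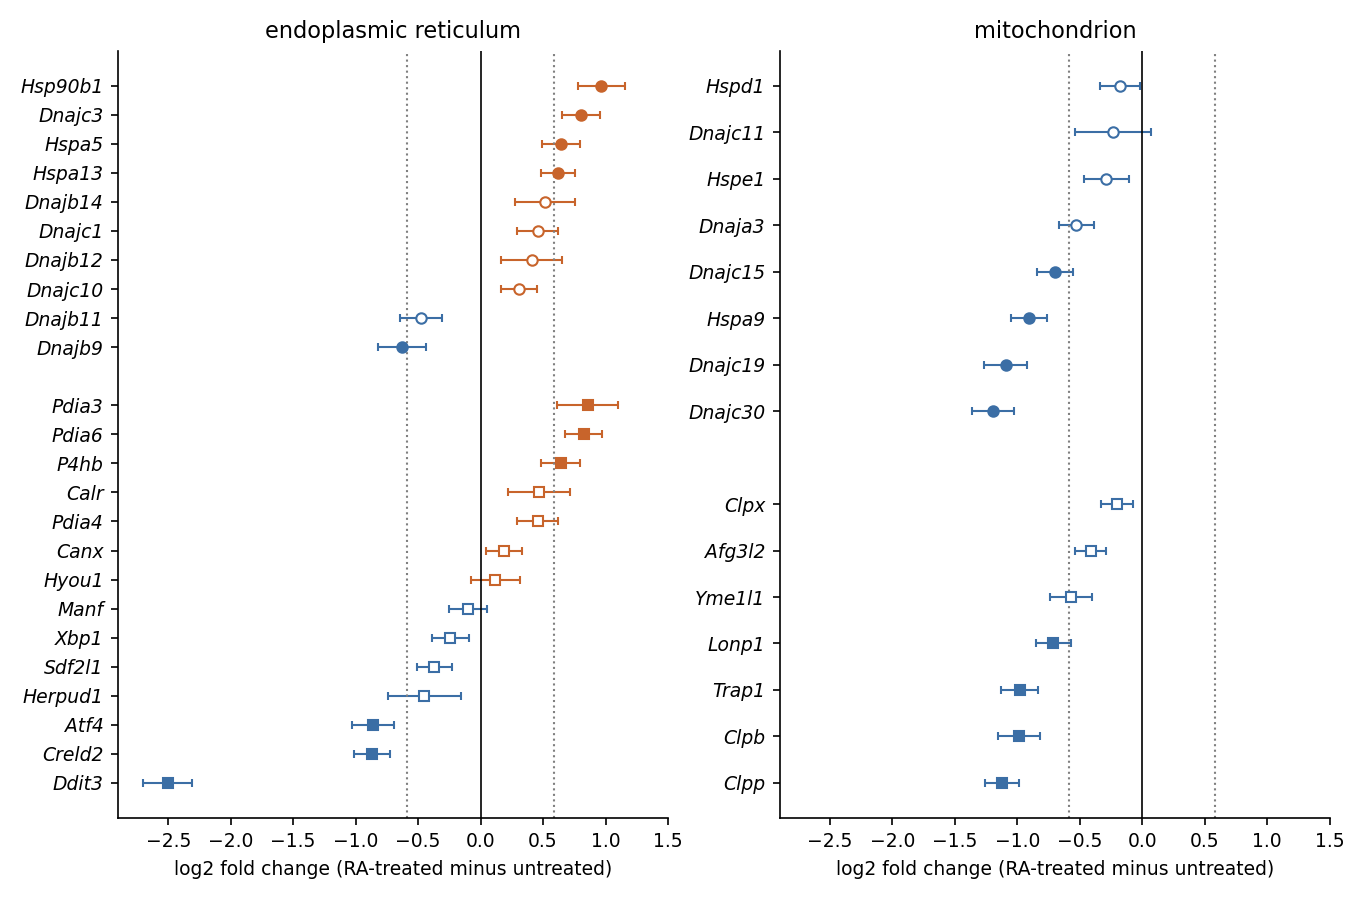
Log2 fold change (RA-treated minus untreated, bars are SE of the limma fit) of ER and mitochondrial members (circles) and of the lists of other ER and mitochondrial genes (squares). Filled symbols were called and dotted lines mark 1.5-fold. Of the ER members 4 lie to the right past 1.5-fold and were called, while the 8 mitochondrial members lie left of 0 at their brightest probes, which for Dnajc11, Hspe1 and Hspd1 turns with the probes, arrays or scaling used.

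Hspa9 (mortalin), the mitochondrial Hsp70 that pulls proteins through the import channel, measured 6.50, 6.14, 6.46 and 6.60 in untreated and 5.44, 5.54, 5.63 and 5.48 in RA-treated replicates. The groups were separate, and Hspa9 fell by 0.91 ± 0.15 (SE; limma adjusted p 0.00124). Dnajc19 and Dnajc15, J-domain proteins of the same import motor, fell by 1.09 ± 0.17 (limma adjusted p 0.00109) and 0.70 ± 0.15 (limma adjusted p 0.00503). Dnajc19 measured 4.38, 4.08, 3.70 and 3.90 in untreated and 2.81, 2.94, 2.88 and 3.05 in RA-treated replicates, without overlap. A dimmer Dnajc19 probe had a change of 0.14 ± 0.23, and with the mean of its probes the change was -0.48 and the call was lost. The Dnajc15 call ended under quantile normalization, at -0.54. Dnajc30, a mitochondrial J-domain protein that interacts with ATP synthase, measured 3.87, 3.46, 3.75 and 3.92 in untreated and 2.36, 2.41, 2.80 and 2.63 in RA-treated replicates. It fell by 1.20 ± 0.17 with no overlap (limma adjusted p 0.000551).

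Dnaja3 (Tid1), the J-domain partner of mortalin in the matrix, had a change of -0.53 ± 0.14 (limma adjusted p 0.0165), under 1.5-fold, and was called without untreated replicate 2 (-0.61), with -0.36 under quantile normalization. Both nucleotide exchange factors of mortalin fell, Grpel1 by 1.25 ± 0.16 (limma adjusted p 0.00035) and Grpel2 by 1.37. In the list of 7 other mitochondrial folding and proteolysis genes none rose and 4 fell: the Hsp90 homologue Trap1 by 0.98, the proteases Clpp by 1.12 and Lonp1 by 0.71, and the disaggregase Clpb by 0.99. The matrix chaperonin was not called. Hspd1 (Hsp60) measured 7.11, 6.82, 6.53 and 6.92 in untreated and 6.69, 6.83, 6.51 and 6.65 in RA-treated replicates. Hspe1 (Hsp10) measured 6.63, 6.23, 5.90 and 6.35 in untreated and 5.90, 6.21, 5.88 and 5.96 in RA-treated replicates. Both overlapped between groups, with changes of -0.18 ± 0.16 (limma adjusted p 0.384) and -0.29 ± 0.18 (limma adjusted p 0.222). Whether Hspa9 and Hspd1 differed from each other in their change was not tested.

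The cytosolic Hsp90 pair did not pass both thresholds. Hsp90aa1, the more stress-induced form, measured 7.58, 7.40, 7.26 and 7.68 in untreated and 6.92, 7.18, 6.81 and 6.87 in RA-treated replicates. Hsp90ab1, the constitutive form, measured 8.18, 8.19, 7.83 and 8.35 in untreated and 7.81, 7.96, 7.81 and 7.89 in RA-treated replicates. The groups stayed apart for Hsp90aa1 and overlapped for Hsp90ab1, with changes of -0.53 ± 0.16 (limma adjusted p 0.0251) and -0.27 ± 0.15 (limma adjusted p 0.195). Under quantile normalization that of Hsp90ab1 was 0.15 and that of Hsp90aa1 -0.19 (limma adjusted p 0.0986). Hsp90aa1 was called lower without untreated replicate 3 or RA-treated replicate 2 (-0.61 for both). Of 20 Hsp90 co-chaperones 3 were called higher and 4 fell, where 14.9% of all gene names were higher and 21.4% lower. Cdc37, which hands kinases to Hsp90, rose by 0.72 and Pih1d1 by 0.61. Ahsa2, also called higher, was not well above background in untreated cells, and as a bound its change was at least 1.37-fold, which is under 1.5-fold. The immunophilins Fkbp5 and Fkbp4, partners of steroid receptor complexes, fell by 1.81 and 0.89, and Tomm34 and Cdc37l1 by 0.75 and 0.73. Stip1 (Hop), which links Hsp70 to Hsp90, had a change of -0.42 (limma adjusted p 0.0329), under 1.5-fold.

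**Figure D4:**
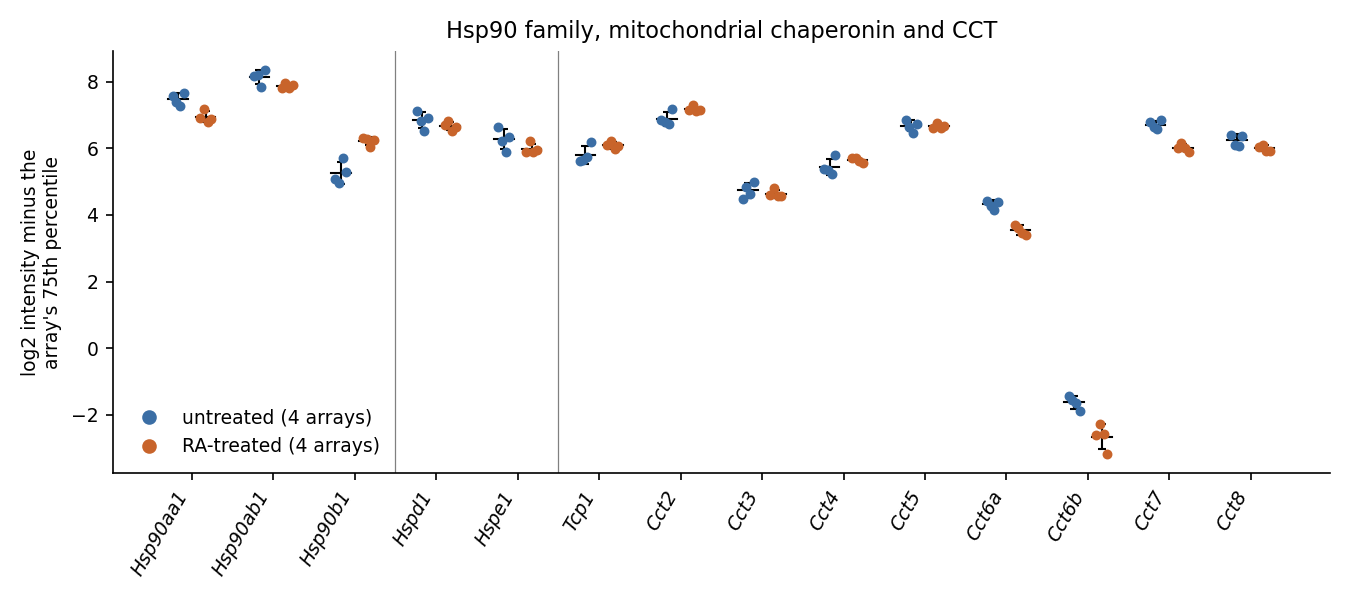
Level on each array (log2 intensity minus the array's 75th percentile) of the Hsp90 genes, the mitochondrial chaperonin and the 9 CCT genes that were not dim, untreated in blue and RA-treated in orange, with mean and SD of 4 replicates. Hsp90b1 lies higher after RA, Cct6a, Cct6b and Cct7 lie lower, and most others overlap or differ by less than 1.5-fold.

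CCT, the ring that folds actin and tubulin, is built of different subunits that are all needed for a working ring. No CCT gene rose, 3 of 10 fell (Cct6a, Cct6b and Cct7), 6 did not pass the test and Cct8l1 was dim throughout. Over all gene names 14.9% were higher and 21.4% lower. Cct6a, the widely expressed zeta subunit, measured 4.43, 4.28, 4.16 and 4.40 in untreated and 3.71, 3.61, 3.47 and 3.40 in RA-treated replicates, 0.77 ± 0.14 lower (limma adjusted p 0.00239). Cct6b, its testis form, measured -1.42, -1.57, -1.65 and -1.89 in untreated and -2.61, -2.27, -2.58 and -3.18 in RA-treated replicates, 1.03 ± 0.21 lower (limma adjusted p 0.00464). Neither overlapped between groups. Cct7 measured 6.79, 6.64, 6.59 and 6.84 in untreated and 6.01, 6.16, 6.01 and 5.90 in RA-treated replicates and fell by 0.70 ± 0.13 (limma adjusted p 0.00325), a call that ended under quantile normalization, at -0.45.

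At the other end of the ring's range, Cct2 had a change of 0.31 ± 0.15 (limma adjusted p 0.137), with 6.86, 6.79, 6.72 and 7.17 in untreated and 7.17, 7.31, 7.13 and 7.16 in RA-treated replicates. The groups overlapped through untreated replicate 4 alone, and Cct2 was called higher under quantile normalization, at 0.62. The remaining subunits Tcp1, Cct3, Cct4, Cct5 and Cct8 had changes from -0.24 to 0.29, none past the test. Of 9 prefoldin and CCT partner genes, prefoldin being the complex that delivers actin and tubulin to the ring, Pfdn6 fell by 0.83 ± 0.15 (limma adjusted p 0.00241) and 8 were not called.

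J-domain proteins choose which clients reach Hsp70 and made up 43 members. In class A 1 of 4 rose, in class B 3 rose and 2 fell of 13, leaving out the dim Dnajb13, and in class C 1 rose and 7 fell of 26. Over all gene names 14.9% were higher and 21.4% lower, and among those well above background on all arrays 19.4% and 26.8%. Dnaja4 measured -2.15, -1.50, -1.57 and -2.41 in untreated and -0.82, -0.63, -0.67 and -0.73 in RA-treated replicates. It rose by 1.20 ± 0.22 with no overlap (limma adjusted p 0.00261), while the general cytosolic partners Dnaja1 and Dnaja2 had changes of -0.03 ± 0.15 and 0.18 ± 0.14. Dnaja1 measured 6.87, 6.51, 6.42 and 6.73 in untreated and 6.64, 6.72, 6.55 and 6.50 in RA-treated replicates, overlapping throughout.

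Dnajb4 (Hlj1) measured -3.51, -3.89, -3.53 and -3.70 in untreated and -2.23, -2.83, -2.37 and -2.52 in RA-treated replicates and rose by 1.17 ± 0.17 (limma adjusted p 0.000782). With normexp background correction its change was 0.61, just over 1.5-fold. Dnajb2 (Hsj1), a co-chaperone known from neurons that sorts clients to the proteasome, measured 0.79, 0.92, 0.73 and 0.71 in untreated and 1.56, 1.27, 1.56 and 1.36 in RA-treated replicates and rose by 0.65 ± 0.14 (limma adjusted p 0.00537). Both were free of overlap. Dnajb3, known from testis, was higher by 1.09 ± 0.35 (limma adjusted p 0.0373), with -0.97, -1.77, 0.01 and -1.17 in untreated and -0.05, -0.21, 0.44 and 0.28 in RA-treated replicates. Untreated replicate 3 overlapped the RA-treated arrays, and the call was lost without any 1 of untreated replicates 1, 2 and 4 or RA-treated replicates 1, 3 and 4 (adjusted p 0.0613 to 0.0924). Dnajb1 (Hsp40), the stress-induced partner of Hsp70, measured 6.16, 5.74, 5.35 and 5.48 in untreated and 4.92, 4.94, 5.12 and 4.89 in RA-treated replicates and fell by 0.71 ± 0.19 (limma adjusted p 0.018). Its groups did not overlap, but the change was -0.55 without untreated replicate 1, the adjusted p was 0.0504 without RA-treated replicate 4, and the change was -0.47 under quantile normalization. Dnajb6, an inhibitor of aggregation of polyglutamine proteins, was not called at its brightest probe (-0.36 ± 0.28, limma adjusted p 0.32) but was called lower without untreated replicate 3 (-0.64) and had -0.20 under quantile normalization, and of its other 3 probes 2 were lower, by 0.79 and 0.69.

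In class C, Dnajc6 (auxilin), the neuronal J-domain protein that uncoats clathrin vesicles, measured -3.69, -3.12, -3.91 and -3.55 in untreated replicates, all well above background. It was not well above background on any RA-treated array, so it fell at least 4.69-fold (limma adjusted p 2.4e-06), a bound set against the dimmest signal called above background on each array. The bound holds for the main scaling, and the fitted log2 change was -1.35 with normexp background correction and -1.12 with the values of the authors. Dnajc21, a J-domain protein of ribosome assembly, measured 3.95, 3.30, 3.72 and 3.70 in untreated and 1.67, 1.96, 1.45 and 1.44 in RA-treated replicates. The groups were far apart, and Dnajc21 fell by 2.04 ± 0.19, or 4.11-fold (limma adjusted p 6.13e-05), the largest decrease among members well above background on all arrays. Dnajc4 measured 2.57, 2.59, 1.94 and 2.49 in untreated and 1.47, 1.26, 1.72 and 1.63 in RA-treated replicates and fell by 0.87 ± 0.19 (limma adjusted p 0.00669).

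Probes of the same gene disagreed in places. Dnajc14 was lower by 0.60 ± 0.19 at its brightest probe (limma adjusted p 0.0356) but higher by 0.55 at another (limma adjusted p 0.044), and its call was lost with the replicate block (adjusted p 0.0594), without untreated replicate 1 or 2 and without any of the RA-treated replicates, with values of -0.43 to -0.61 in those fits. It was also lost with normexp background correction (-0.49), under quantile normalization (-0.48) and with the mean of all probes, where the change was -0.02 (limma adjusted p 0.908), so that 4 of the 16 alternatives kept it. Dnajc5 (cysteine string protein), a co-chaperone of synaptic vesicles, measured 6.995, 6.56, 6.28 and 5.97 in untreated and 6.13, 6.12, 5.76 and 5.99 in RA-treated replicates at its brightest probe. These overlapped, with a change of -0.45 ± 0.23 that did not pass the test, while another pair of bright probes rose by 0.75 and 0.83. Dnajc11, a protein of the mitochondrial membrane contact sites, likewise had -0.24 ± 0.31 at its brightest probe while a further probe rose by 1.30 ± 0.15. Of 18 members with a further probe well above background on all arrays, 8 had one of opposite sign, and for 2, Dnajc5 and Dnajc11, such a probe was called.

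Of the names that the rule took in without being chaperones, Hspbap1, an Hsp27-binding protein, measured -3.60, -4.08, -4.29 and -4.02 in untreated and -5.52, -5.64, -6.22 and -5.02 in RA-treated replicates, of which only 1 RA-treated array was well above background. It was lower by 1.60 ± 0.26 (limma adjusted p 0.00139) with no overlap, a call that ended with normexp and quantile normalization and with the values of the authors (-0.39 and -0.38). Hspbp1, an exchange factor of Hsp70, measured 2.29, 2.31, 2.22 and 2.77 in untreated and 2.54, 2.58, 2.82 and 2.62 in RA-treated replicates. It overlapped through untreated replicate 4 and was not called (0.24 ± 0.16). In the list of 10 nucleotide exchange and partner factors of Hsp70, which holds Hspbp1, 3 rose and 2 fell. Bag2, an exchange factor that inhibits the ubiquitin ligase Stub1, had the largest change, with -2.09, -1.44, -1.36 and -1.03 in untreated and 2.35, 2.24, 2.20 and 2.20 in RA-treated replicates, an increase of 3.73 ± 0.22 without overlap (limma adjusted p 6.66e-06). Sil1, the exchange factor of BiP in the ER, rose by 0.65.

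Of the 5 heat shock factors none rose and 1 fell. Hsf1, the main activator of the heat shock response, measured 1.58 ± 0.08 (SD) in untreated and 1.66 ± 0.06 in RA-treated cells, a change of 0.08 ± 0.12 (SE; limma adjusted p 0.631). Hsf2 was lower by 0.60 ± 0.17 (limma adjusted p 0.0206), and Hsf3 was dim on all arrays. Transcript levels of these factors do not measure their activity.

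For 57 of the 71 members well above background throughout the SD was larger in untreated than in RA-treated cells, with a median SD of 0.23 against 0.13. The members' share of 80.3% stood beside 71.1% of the 18043 gene names well above background on all arrays, so it is not shown to be particular to the members. All 6 primitive endoderm markers also had the larger SD in untreated cells. The 8 ES cell markers all went the other way, for example 0.30 against 1.42 for Pou5f1. The median deviation of the 71 members from their group mean lay between -0.08 and 0.07 in untreated and between -0.04 and 0.06 in RA-treated replicates.

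**Figure D5:**
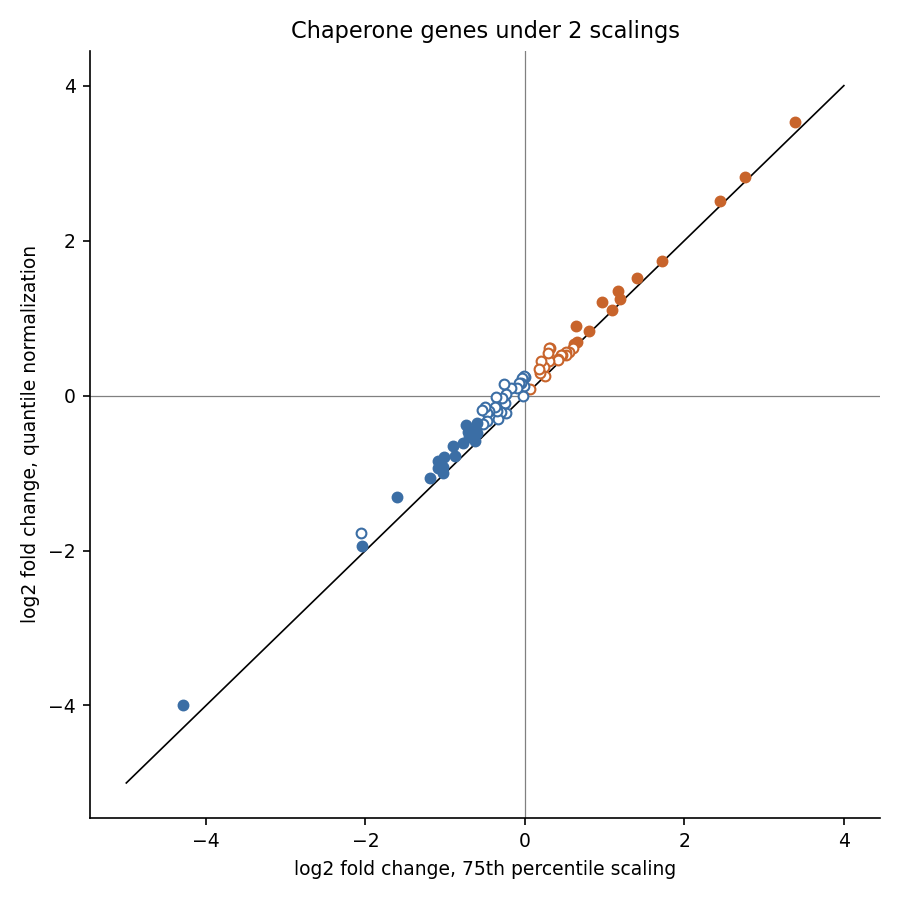
Log2 fold change of the members not dim on all arrays under scaling to the 75th percentile (horizontal) and quantile normalization (vertical), with the line of equality. Filled points were called under the first scaling. Nearly all points lie on or above the line, and several uncalled members near 0 change sign.

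The scaling sets where 0 lies. The median log2 change of all gene names was -0.27 with the 75th percentile and 4e-04 with quantile normalization, and that of the members -0.20 and 0.09. Among names well above background the split moved from 19.4% higher and 26.8% lower to 21.4% and 21.6%. Of the 33 calls 26 were kept under quantile normalization and 1 was new, Cct2. Cct7, Dnajb1, Dnajb3, Dnajc14, Dnajc15, Hspa14 and Hspb1 were lost. The increases of Hspa12b, Hspb2, Hspb11, Hspa4l, Hspb8, Dnaja4, Dnajb4, Hsp90b1, Dnajc3 and Dnajb2 and the decreases of Dnajc6, Dnajc21, Dnajc30, Hspa9, Hsph1, Cct6a, Cct6b and Dnajc4 were called under every one of the 16 alternatives planned for the normalization, the background, the filter, the block, the arrays or the probes. Centring on the median of genes well above background on all arrays, which was added later and is not among the 16, ended the call of Cct6a (-0.57) and kept the others of this list. It also ended the calls of Cct7, Dnajb1, Dnajb9, Dnajc14, Dnajc15, Hspa14 and Hspb1, and added Dnajb5, Dnajc16 and Dnajc18 as higher (0.66, 0.75 and 0.62). Centring moved the changes against the 1.5-fold threshold alone. The adjusted p-values stayed those of the uncentred fit, so the centred changes were not tested.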

How the data were processed

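For each of 8 arrays the authors deposited the output of Feature Extraction (Agilent, version 10.7.3.1), a background-corrected intensity per spot without normalization between arrays, and a further table of log2 values in which all arrays share a distribution. RNA had been amplified with oligo-dT primers and labelled with Cy3. The authors' methods set the FDR at 0.05 and the fold change at 1.5.

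In R (version 4.3.3) the log2 intensity was taken relative to the 75th percentile of the 59305 spots that are not controls. The 3671 control spots and 124 to 145 outlier spots per array were left out, and spots of a probe were averaged to 55681 probes. Untreated and RA-treated arrays were compared in linear models with moderated variances (limma, version 3.58.1), and p-values of all probes were adjusted together by the Benjamini-Hochberg method. Between 56.7% and 62.7% of spots were well above background and none was saturated. The number of arrays limits the precision.

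The members and lists were chosen with earlier results of these data known. Any member could be named. Values per array are given for the 12 largest increases and decreases among called members, for Hsp90 and mitochondrial chaperonin genes, for the extremes of CCT, and for the brightest probe of a family, leaving out the dim Dnajb13, and a few others were chosen after their values were seen. Probe positions are on mm9.

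Arrays lay on 2 slides with 2 of each group. Deviations of same-numbered arrays correlated at 0.187, 0.189, 0.104 and 0.151. Those of differently numbered arrays lay between -0.269 and 0.142, and the labels do not say that arrays were paired by number. The main model had no block, and the replicate number as a block was an alternative. Alternatives were the background correction, normalization, dim filter, slide and replicate blocks, thresholds, probe choice and leaving out each array. Centring on the median of detected genes was chosen after seeing the data and kept the p-values of the main fit. The fit was tested on simulated arrays with log2 changes of 2 up or down. The scaling, the choice of probe and changes near 1.5-fold were not tested in this way.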

Additional observations from a re-analysis of the deposited data

Results flagged for a closer look

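Values of 5 members stood apart from the other 3 arrays of their group by Dixon's criterion, among 96 groups looked at, where chance gives about 1 in 20 (4.8). Levels are log2 intensity relative to the array's 75th percentile. Cct3 measured 4.82 in RA-treated replicate 2 and 4.58 to 4.59 in the others. Dnajc4 measured 1.94 in untreated replicate 3 and 2.49 to 2.59 in the others. Hspa4l measured 0.38 in RA-treated replicate 4 and 0.24 to 0.26 in the others. Hspb6 measured -0.19 in untreated replicate 3 and 0.90 to 1.09 in the others. Hspbp1 measured 2.77 in untreated replicate 4 and 2.22 to 2.31 in the others. Untreated replicate 3 and untreated replicate 4 are named for 2 and 1 of them, and the cause was not tested.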

How the results depend on the processing

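Under the alternatives, 13 members called higher became 8 with a threshold of 2-fold and 6 with a test against 1.5-fold (limma treat), and 20 called lower became 10 and 7. Members called lower also became 10 with normexp and quantile normalization and 10 with the authors' values. With centring on the median of detected genes, where the p-values of the main fit were kept, they became 12. Leaving out 1 array gave 11 to 14 higher and 15 (without untreated replicate 1) to 24 (without untreated replicate 3) lower. The replicate block kept 32 of 33 calls (33 in all), losing Dnajc14 and adding Hspb3, and the slide block kept all 33. The median change of the members (-0.197; -0.243 to -0.140 leaving out an array) became 0.0872 with quantile normalization, 0.0384 with normexp and quantile normalization, 0.035 with the authors' values and 0.0058 when centred. In the same order, CCT (-0.169; -0.217 to -0.103) became 0.0603, 0.0616 and 0.0613, Hsp90 (-0.268; -0.370 to -0.197) 0.154, 0.156, 0.155 and -0.0653, class A (0.0718; 0.0171 to 0.132) 0.285, 0.28, 0.275 and 0.274, and class C (-0.0592; -0.141 to -0.0218) 0.0415, 0.0255, 0.0287 and 0.143. Hsp70 (-0.011; -0.101 to 0.089) became 0.298 with quantile normalization and 0.191 when centred, the mitochondrial chaperonin (-0.233; -0.348 to -0.130) 0.042 with normexp and quantile normalization, and small heat shock proteins (-0.622; -0.766 to -0.493) -0.220 with normexp and quantile normalization and -0.230 with the authors' values. With the mean of all probes the members were -0.0702, the mitochondrial chaperonin -0.0303, class C -0.0108, Hsp70 0.261 and class A -0.132. With the dim filter, which tests fewer genes, the members were -0.0861, CCT -0.102 and class B (-0.197; -0.363 to 0.131) 0.435. With quantile normalization class B was 0.119, the mitochondrial chaperonin 0.0324 and small heat shock proteins -0.272, and when centred CCT was 0.0337 and the mitochondrial chaperonin -0.0307.

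Changes of uncalled genes turned sign. With quantile normalization Hsp90ab1 was 0.154, Hspd1 0.0961, Cct5 0.247, Dnaja1 0.226, Cct8 0.0174, Cct3 0.103 and the dim Cct8l1 0.0145, with normexp Cct5 0.0282, with normexp and quantile normalization Hsp90ab1 0.156, Hspd1 0.0981, Cct5 0.261, Dnaja1 0.232, Cct8 0.0269 and Cct3 0.0962, and with the authors' values Hsp90ab1 0.155, Hspd1 0.095, Cct5 0.255, Dnaja1 0.218, Cct8 0.025 and Cct3 0.0975. With the mean of probes Dnajc5 was 0.427 and Hspe1 0.118, and when centred Hspd1 was 0.0243, Cct5 0.193, Dnaja1 0.171 and Cct3 0.100. Leaving out an array, Cct5 ranged from -0.0814 to 0.0487 and Dnaja1 from -0.103 to 0.0462. The cause was not tested.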
